A study of Mus musculus with 6 samples.

Results

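The integrated stress response couples protein synthesis to the supply of amino acids and to stress. Kinases that sense uncharged tRNA, unfolded protein, double-stranded RNA or haem shortage phosphorylate the initiation factor eIF2, which slows general translation and raises translation of the transcription factor ATF4. ATF4, usually paired with a C/EBP protein, then switches on genes for amino acid synthesis, mitochondrial one-carbon metabolism, tRNA charging and feedback control, a programme that dividing T cells draw on as they grow. RNA counts measure the transcripts of this programme and not eIF2 phosphorylation or ATF4 protein.

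The 35 genes described here were listed by name, as ATF4, its partners and its targets, and their rows were taken from a table of 49492 gene symbols. All 35 had a row and all 35 passed the filter on low counts, which left 15186 genes to test. They comprise 3 genes of eIF2 sensing and feedback, 6 transcription factors, 4 stress effectors, 7 enzymes of amino acid synthesis, 3 enzymes of mitochondrial one-carbon metabolism and 12 genes of tRNA charging and export. Together they took 0.898% of the counts of an average library.

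The KO libraries came from NIK-CD4Cre-OT-I mice and the WT libraries from wild type OT-I mice, all on the strain background given as C57/BL6 and aged 6 to 8 weeks, with 3 libraries each (KO replicates 4 to 6, WT replicates 1 to 3). Both groups carry the OT-I transgenic T cell receptor, and Cre driven by Cd4 sequences acts from T cell development onward, in CD4 as well as CD8 lineage cells. Naive CD8 T cells of the spleen were stimulated for 24 hours with plate-bound anti-CD3 (1 µg/ml) and soluble anti-CD28 (1 µg/ml), so no unstimulated cells serve as a baseline. Nothing in the labels ties a library to a separate mouse, and p-values then measure the spread between these libraries, which may be in part technical.

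Gene counts summed to between 41311346 and 47851445 per library, and 3 counts corresponded to 0.0627 to 0.0722 CPM (read counts put on the same total in every library, by TMM). Map3k14, which encodes NIK, had 2425, 2837 and 2271 counts in the KO libraries, against 2406, 2992 and 3025 counts in the WT libraries (log2 fold -0.12, edgeR adjusted p = 0.806). The count of WT replicate 1 fell within the KO range, and those of WT replicates 2 and 3 lay above it. A count over the whole gene cannot show the loss of some exons, so KO and WT mean libraries so labelled throughout, and this check does not settle the label of WT replicate 1, which every value without that library turns on. The 5 CD8 T cell markers summed to 1458, 1469 and 1402 CPM in KO replicates 4 to 6, and to 1429, 1276 and 1322 CPM in WT replicates 1 to 3. WT replicates 2 and 3 thus had the lowest sums. Cd4 was under 1 CPM in all 6. Xist was high in KO replicate 6 and WT replicates 1 and 3 (82938 to 92901 counts) and at 22 to 38 counts in the other libraries. Both genotypes thus mixed the sexes of the mice, and each drew on more than 1 mouse. Whether libraries of the same sex and genotype came from separate mice is not shown.

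ATF4 acts through the C/EBP-ATF response element, and a search of the promoters shows which of these genes have a match to its core near the start of transcription. The core was searched as TGATGNAA on both strands of RefSeq promoter windows (GRCm38.p6), each running from 250 bases before to 50 bases after a start. A window was found for 29 genes, and Cth, Aldh1l2, Lars, Mars, Nars and Wars had none. The core was present in 11 of the 29 genes (37.9%), against 4.51% of all 27025 genes with a window. Sites of Trib3, Nupr1, Chac1, Vldlr, Asns, Pycr1, Gars, Iars, Tars and Yars follow as 30-base stretches in the direction of transcription, with the core in capitals, and TTACATCA, TTGCATCA and TTTCATCA are the same core read on the opposite strand.
Trib3 (chr2:152344028-152344057, minus strand): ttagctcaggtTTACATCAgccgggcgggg
Nupr1 (chr7:126625562-126625591, minus strand): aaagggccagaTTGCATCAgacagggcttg
Chac1 (chr2:119351038-119351067, plus strand): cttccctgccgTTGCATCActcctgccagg
Vldlr (chr19:27216809-27216838, plus strand): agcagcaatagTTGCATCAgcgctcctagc
Asns (chr6:7693214-7693243, minus strand): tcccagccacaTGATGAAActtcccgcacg
Pycr1 (chr11:120643833-120643862, minus strand): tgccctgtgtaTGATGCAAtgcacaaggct
Gars (chr6:55037960-55037989, plus strand): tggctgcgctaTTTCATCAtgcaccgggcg
Iars (chr13:49682126-49682155, plus strand): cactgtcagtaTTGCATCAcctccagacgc
Tars (chr15:11399655-11399684, minus strand): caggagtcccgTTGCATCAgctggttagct
Yars (chr4:129189895-129189924, plus strand): acgagctcagcTGATGCAAcccgacgggac

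The commonest form among these was TTGCATCA, which Nupr1, Chac1, Vldlr, Iars and Tars shared, and Pycr1 and Yars held its reverse complement. Matches lay anywhere from 200 bases before the start (Vldlr) to 14 bases after it (Trib3). The E-box core CACGTG, which MYC binds and which reads the same on both strands, was present in 6 of the 29 genes (20.7%), against 8.09% of all genes with a window. Nupr1, Aars, Iars and Tars had both cores, with no overlap between them. A match describes the letters of a window and is not a measure of binding, and a missing match says nothing of sites elsewhere. The 250 bases before the Chac1 start (chr2:119350992-119351241, plus strand) are shown whole, since Chac1 had the smallest p of the 35 genes.
Chac1 upstream: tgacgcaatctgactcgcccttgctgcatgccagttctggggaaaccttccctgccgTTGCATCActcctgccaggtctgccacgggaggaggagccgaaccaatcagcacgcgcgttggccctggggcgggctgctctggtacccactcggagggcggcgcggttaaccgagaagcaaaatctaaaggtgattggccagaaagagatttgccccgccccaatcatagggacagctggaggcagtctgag

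**Figure D1:**
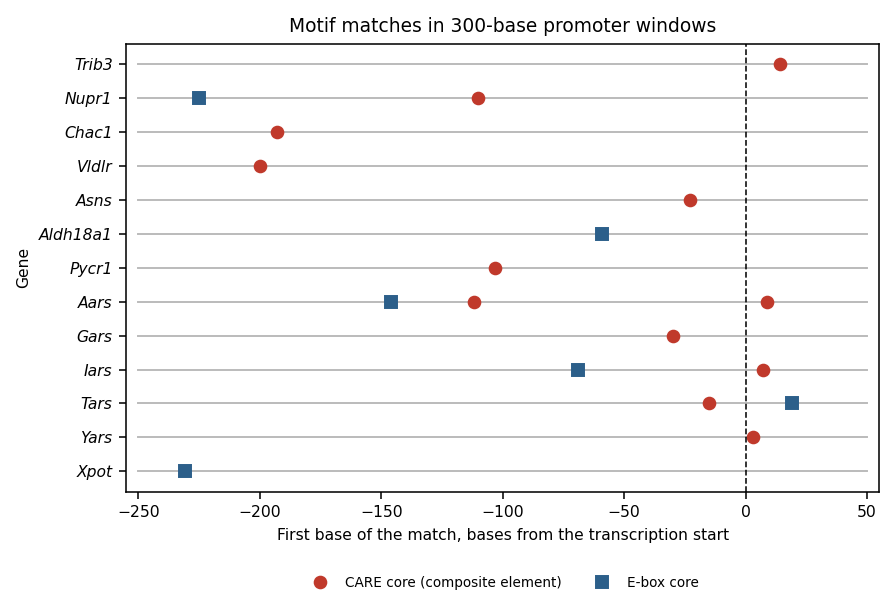
Positions of the response element core (circles) and the E-box core (squares) in the promoter windows of the 13 genes with a match of either; the x axis is the distance of the first base of the match from the transcription start, in bases, and each row is a gene. The response element core falls between -200 (Vldlr) and 14 (Trib3).

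Across the 35 genes, 34 had a lower fitted level in KO than in WT libraries, and Eif2ak4 was the exception. The median log2 fold (KO over WT) was -0.21, in a range from -1.21 to 0.02, while the median over all tested genes was 0.01. At an unadjusted p under 0.05, 22 of the 35 were lower and 0 were higher. Over all tested genes 3.44% were lower at that p. These genes vary together across libraries, so the count is not a count of independent events.

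None of these differences passed correction over all tested genes in edgeR's quasi-likelihood test. It called 0 of the 35, and 0.00659% of all genes, at a Benjamini-Hochberg adjusted p under 0.05. DESeq2 called 1 of the 35, Chac1, as lower, and 0.165% of all genes as lower, and limma-voom called 0 of the 35. In 14 of the 35 genes every KO library lay under every WT library, as did 6.07% of all tested genes. The other 21 overlapped, and in each of those 21 the level of WT replicate 1 fell inside the range of the KO libraries.

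**Figure D2:**
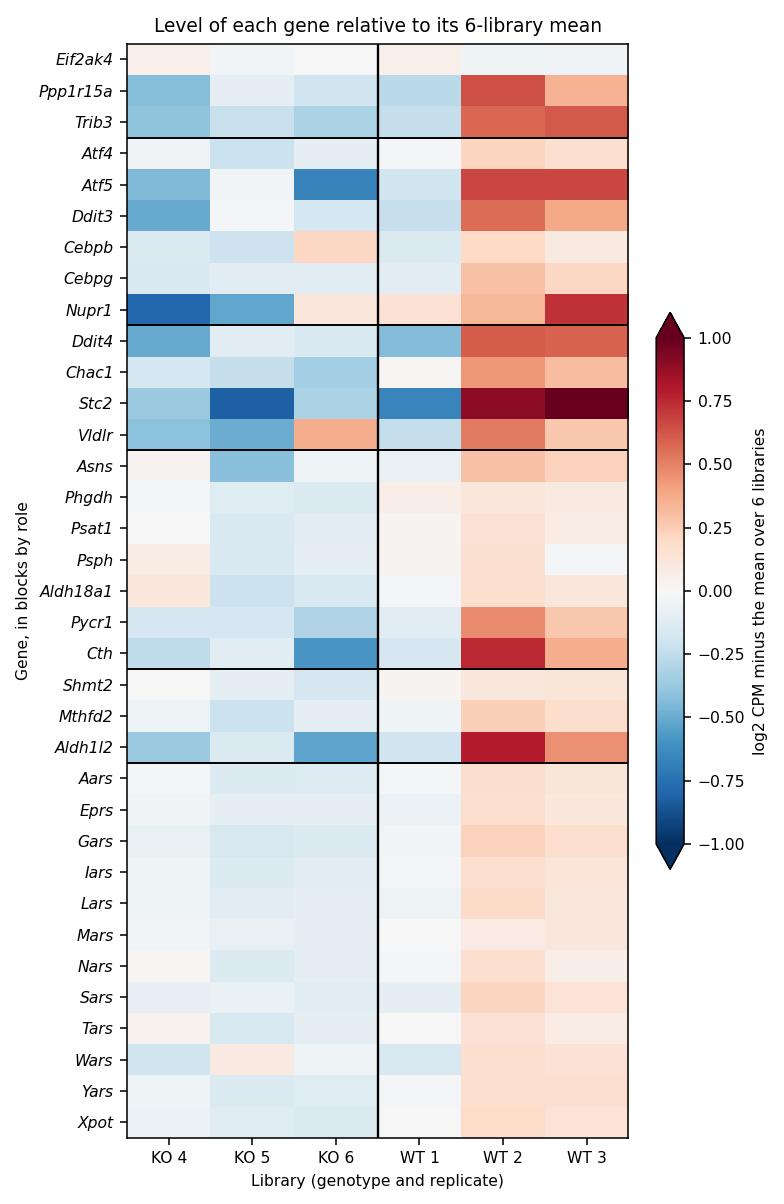
Level of each of the 35 genes in each library, as log2 CPM minus the mean over the 6 libraries (colour scale from -1 to 1, values beyond it in the end colours); rows are genes in blocks by role and columns are the KO libraries, then the WT libraries. WT replicates 2 and 3 stand above the mean in 34 and 33 genes, while WT replicate 1 does so in 8.

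On the first principal component over all tested genes, WT replicates 2 and 3 stood apart from the other 4 libraries. The split described next is thus not confined to these genes. The first principal component (29.9% of the variance) had scores of -25.6, -3.29 and -11.3 in KO replicates 4 to 6, and -13.7, 20.4 and 33.5 in WT replicates 1 to 3. By mean chi-square per gene the closest pairs were WT replicates 2 and 3 (21.2) and KO replicate 4 with WT replicate 1 (21.2), out of a range up to 58.0. WT replicate 2 held the highest level of 28 of the 35 genes, against 18.3% of all tested genes, and WT replicate 3 of 5, against 14.0%. The lowest level was in KO replicate 5 for 17, in KO replicate 6 for 10 and in KO replicate 4 for 7. Over all tested genes these 3 libraries were lowest in 16.6%, 14.6% and 18.0%. The counts of WT replicate 3 and KO replicate 4 were thus near their shares over all tested genes. KO replicates 4, 5 and 6 were above the 6-library mean in 7, 1 and 3 genes, and WT replicates 1, 2 and 3 in 8, 34 and 33 genes. WT replicate 1 was under both other WT libraries in 33 of the 35 genes, against 40.0% of all tested genes. All 3 KO libraries lay under WT replicates 2 and 3 in 31 of the 35 genes, against 17.1% of all tested genes.

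Leaving out WT replicate 1 brought part of the programme past the threshold. That library was under both other WT libraries in 33 of the 35 genes, so its removal by itself raises their WT mean. The calls that follow are thus not separate evidence of a lower level in KO. With the remaining 5 libraries edgeR called 7 of the 35 genes, each lower in KO, and 0.43% of all tested genes lower. These were Trib3, Cebpg, Ddit4, Chac1, Stc2, Pycr1 and Aldh1l2, and the median log2 fold of the 35 was -0.27. Leaving out any other library gave 0 calls among the 35, with a median between -0.24 without KO replicate 4 and -0.17 without WT replicate 2. The number lower at an unadjusted p under 0.05 was 29 without WT replicate 1, 11 and 12 without KO replicates 5 and 6, and 7 without WT replicate 2 or WT replicate 3. The share of all tested genes lower at that p moved in step, at 7.33% without WT replicate 1, 2.59% and 2.48% without KO replicates 5 and 6, and 1.601% and 1.576% without WT replicates 2 and 3.

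Other measures moved with the libraries that were high in these genes. WT replicates 2 and 3 had the most detected genes (22127 and 22134, against 21707, 21716 and 21857 in the KO libraries and 21686 in WT replicate 1). They also had the lowest mitochondrially encoded share of counts, 1.28% in each, against 1.32% to 1.38% in the KO libraries and 1.42% in WT replicate 1. Their sums of the 5 CD8 T cell markers were the lowest as well, at 1276 and 1322 CPM. The sums were 1402 to 1469 CPM in the KO libraries and 1429 CPM in WT replicate 1. None of these 5 markers was highest in WT replicate 2 or 3. The 5 B cell markers summed to 25.9, 29.0 and 38.0 CPM in KO replicates 4 to 6, and to 23.0, 68.0 and 43.2 CPM in WT replicates 1 to 3. All 5 were highest in WT replicate 2 and none was at 0. The 6 macrophage and monocyte markers summed to 8.68 to 16.1 CPM in KO libraries and 6.35 to 9.85 CPM in WT libraries. Sums for dendritic cells were 3.93 to 5.78 CPM in KO libraries and 3.68 to 4.49 CPM in WT libraries, and those for NK cells, neutrophils, and erythroid cells and platelets stayed under 1 CPM in all 6. The part of these measures in the differences was not tested. In bulk RNA, fewer cells of a type and less RNA per cell cannot be told apart.

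The libraries with low Xist held 1 WT library and those with high Xist held 1 KO library, too few for a comparison within either sex. A fit with sex as a term gave 25 of the 35 genes lower at an unadjusted p under 0.05, against 3.38% of all tested genes, and 0 calls among the 35.

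**Figure D3:**
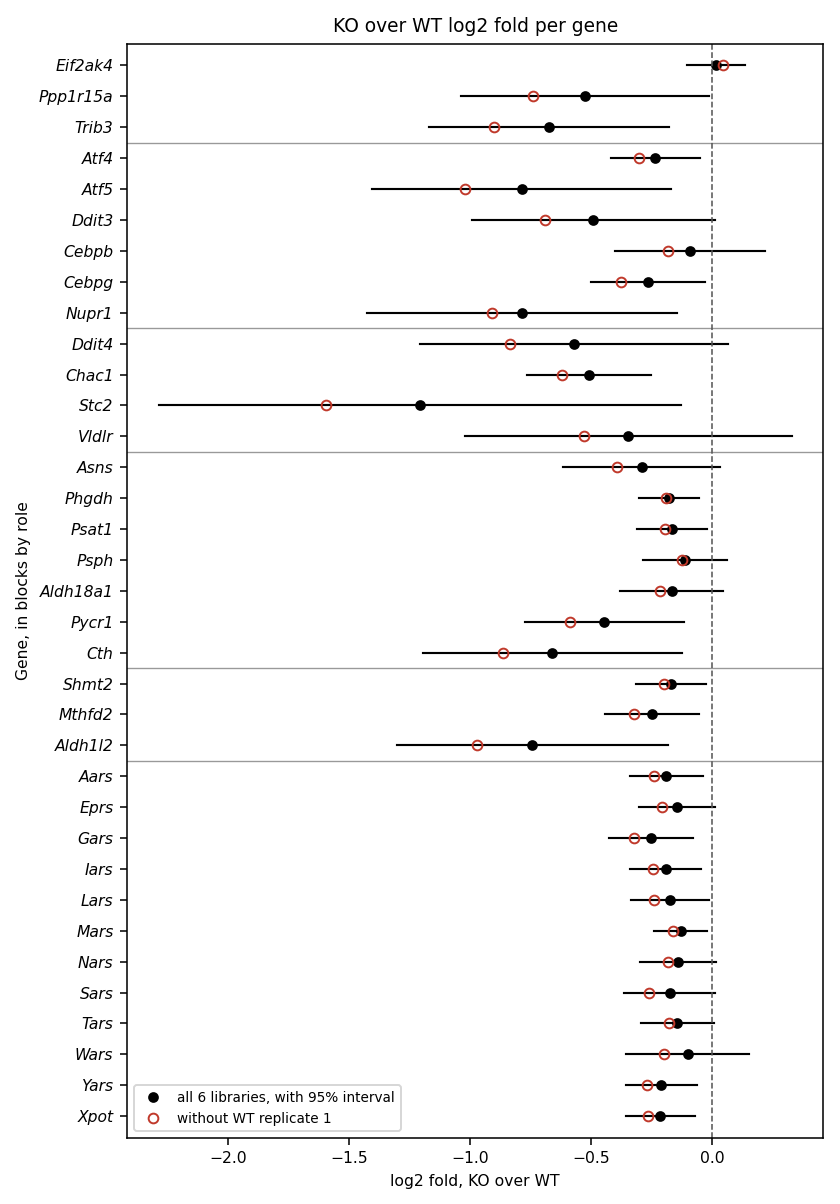
Fitted log2 fold of each gene, KO over WT (x axis), with genes in rows in blocks by role; filled points are all 6 libraries with their 95% interval, and open points are the fit without WT replicate 1. The filled points run from -1.21 (Stc2) to 0.02 (Eif2ak4), and the open points of 34 genes lie at negative values.

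Both feedback genes were lower in KO libraries at an unadjusted p under 0.05, as were 3.44% of all tested genes. The sensor kinase listed with them was level. Eif2ak4 encodes GCN2, the kinase that detects uncharged tRNA (chromosome 2, 118388618 to 118475234, plus strand, GRCm38). It was at 41.7, 39.5 and 40.1 CPM in KO replicates 4 to 6, and at 41.5, 39.1 and 39.3 CPM in WT replicates 1 to 3. Its groups overlapped, and the 95% interval of its log2 fold ran from -0.10 to 0.14 (log2 fold 0.02, SE 0.05, edgeR adjusted p = 0.950). The sign turned negative without KO replicate 4.

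Trib3 encodes a pseudokinase that binds ATF4 and restrains it (chromosome 2, 152337422 to 152344032, minus strand). It was at 65.6, 74.1 and 69.6 CPM in KO replicates 4 to 6, and at 73.4, 128.6 and 132.2 CPM in WT replicates 1 to 3. The KO libraries and WT replicate 1 formed a narrow band well under WT replicates 2 and 3. The log2 fold was -0.68 (SE 0.21, edgeR adjusted p = 0.612), and -0.90 without WT replicate 1 (edgeR adjusted p = 0.00522). Ppp1r15a encodes GADD34, which brings a phosphatase to eIF2 and ends the response. Its levels were 38.4, 48.3 and 44.8 CPM in KO replicates 4 to 6, and 42.8, 80.7 and 65.7 CPM in WT replicates 1 to 3 (log2 fold -0.52, SE 0.22, edgeR adjusted p = 0.682). Again WT replicate 1 lay among the KO libraries, and the fit without it gave -0.74 with an edgeR adjusted p of 0.063.

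All 6 transcription factors had negative estimates. Of these, 4 had an unadjusted p under 0.05, against 3.44% of all tested genes lower at that p. Atf4 itself (chromosome 15, 80255184 to 80257541, plus strand) was at 521.6, 460.7 and 499.7 CPM in KO replicates 4 to 6, and at 526.6, 620.5 and 597.7 CPM in WT replicates 1 to 3. The groups did not overlap, though KO replicate 4 and WT replicate 1 nearly met. Its log2 fold was -0.24 (SE 0.08, edgeR adjusted p = 0.626), a fold of 0.849 with a 95% interval from 0.748 to 0.965. Since ATF4 is controlled largely at translation, its RNA is a limited guide to its protein.

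Atf5, a related factor that is also controlled through its leader sequence, showed a wider gap than Atf4. It was at 31.4, 41.9 and 26.9 CPM in KO replicates 4 to 6, and at 37.2, 67.9 and 67.9 CPM in WT replicates 1 to 3 (log2 fold -0.79, SE 0.26, edgeR adjusted p = 0.628). Ddit3 encodes CHOP, the factor linked to cell death under prolonged stress, and had 17.7, 24.8 and 22.2 CPM in KO replicates 4 to 6, and 21.4, 37.0 and 32.6 CPM in WT replicates 1 to 3. Its log2 fold was -0.49 (SE 0.21, edgeR adjusted p = 0.693). In both genes WT replicate 1 fell inside the KO range. Ddit3 shares 68 bases of exon with Mars on the opposite strand, so without a stated strand setting some reads of the pair cannot be told apart. It also shares 105 exon bases on the same strand with a second annotated gene of the same name, which a strand setting would not separate. Atf5 shares 82 exon bases each with Il4i1 and Nup62 on the opposite strand.

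Nupr1, a small stress-induced nuclear protein, was low in every library. It had 1.30, 1.57 and 2.45 CPM in KO replicates 4 to 6, and 2.52, 2.87 and 3.78 CPM in WT replicates 1 to 3. The groups did not overlap, though KO replicate 6 and WT replicate 1 nearly met (log2 fold -0.79, SE 0.27, edgeR adjusted p = 0.628). The C/EBP partners differed from each other in size. Cebpg averaged 82.4 ± 1.39 CPM in KO libraries and 99.0 ± 14.2 CPM in WT libraries (SD, n = 3 each, log2 fold -0.27), and passed as lower without WT replicate 1 (log2 fold -0.38, edgeR adjusted p = 0.0367). Cebpb averaged 37.6 ± 5.96 CPM in KO libraries and 40.0 ± 4.77 CPM in WT libraries (SD, n = 3 each), with a log2 fold of -0.09 and KO replicate 6 as its highest library. Cebpb shares 312 exon bases with Tmem189 on the opposite strand.

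Among the stress effectors, Chac1 was the one gene of the 35 with a call on all 6 libraries. CHAC1 breaks down glutathione, and the promoter window of its gene (chromosome 2, 119351229 to 119354381, plus strand) has the match to the response element core printed above. It was at 35.8, 34.3 and 31.9 CPM in KO replicates 4 to 6, and at 40.7, 54.6 and 49.96 CPM in WT replicates 1 to 3. Every KO library lay under every WT library. The log2 fold was -0.51 (SE 0.11), a fold of 0.703 with a 95% interval from 0.589 to 0.839. DESeq2 called it (adjusted p = 0.00917), and edgeR did not with all libraries (adjusted p = 0.525) but did without WT replicate 1 (adjusted p = 0.0314).

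Stc2, which encodes a secreted stanniocalcin, had the widest difference of the 35 genes at a very low level. It was at 2.24, 1.64 and 2.33 CPM in KO replicates 4 to 6, and at 1.83, 5.45 and 7.08 CPM in WT replicates 1 to 3. WT replicate 1 sat with the KO libraries, and WT replicates 2 and 3 stood far above all 4 (log2 fold -1.21, SE 0.46, edgeR adjusted p = 0.669). Without WT replicate 1 the log2 fold was -1.597 and the edgeR adjusted p was 0.0338.

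Ddit4, which encodes the mTORC1 inhibitor REDD1, also had WT replicate 1 among the KO libraries. It was at 76.2, 100.4 and 97.0 CPM in KO replicates 4 to 6, and at 80.0, 163.9 and 161.9 CPM in WT replicates 1 to 3 (log2 fold -0.57, SE 0.27, edgeR adjusted p = 0.697). Without WT replicate 1 it passed as lower (log2 fold -0.84, edgeR adjusted p = 0.0457). Vldlr, a lipoprotein receptor, averaged 4.36 ± 1.54 CPM in KO libraries and 5.53 ± 1.41 CPM in WT libraries (SD, n = 3 each), and its log2 fold of -0.35 had an edgeR adjusted p of 0.789.

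**Figure D4:**
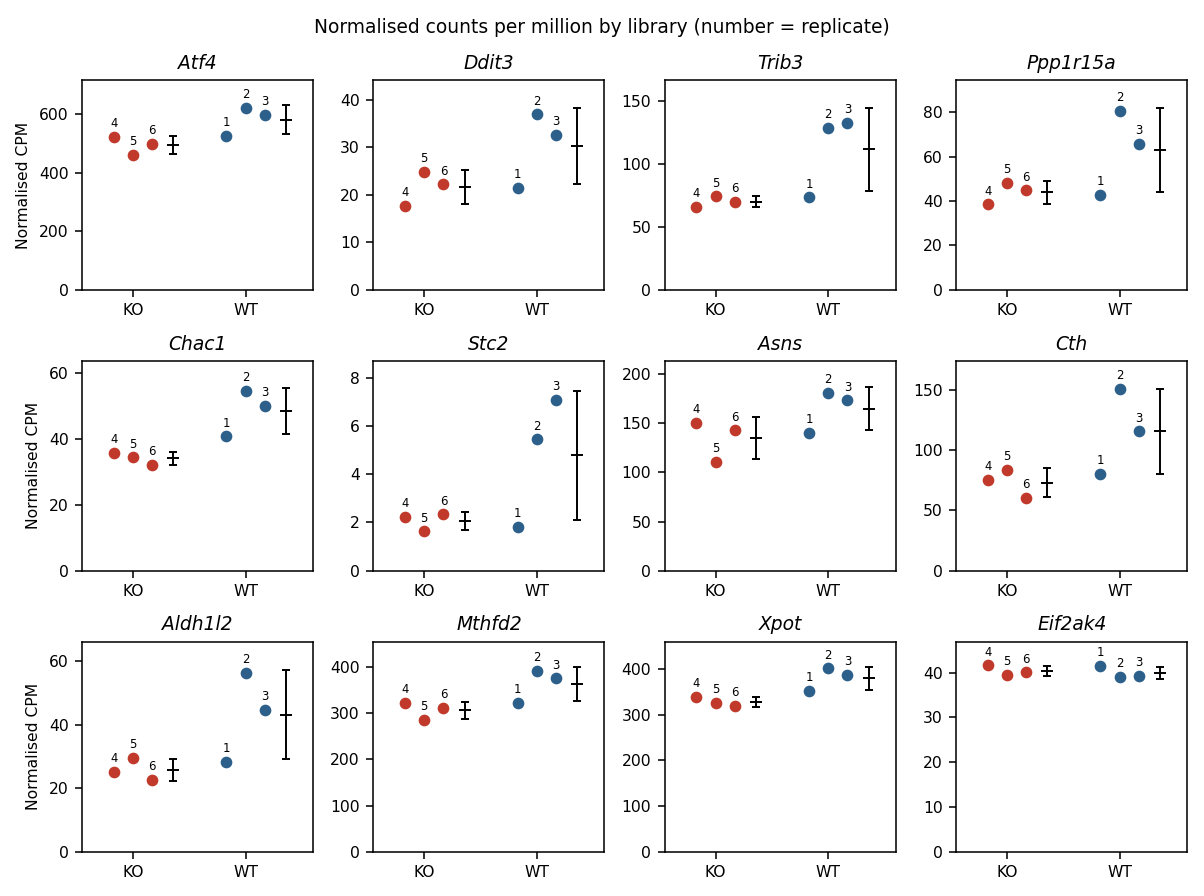
Normalised CPM of 12 of the genes in each library (points, labelled with the replicate number), with the mean and SD of each group beside them (n = 3 each) and y axes from 0. In Trib3, Ppp1r15a, Ddit3, Stc2, Asns, Cth, Aldh1l2 and Eif2ak4 WT replicate 1 lies within the range of the KO libraries, and in Chac1, Atf4, Mthfd2 and Xpot it lies above it.

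The 7 enzymes of amino acid synthesis all had negative estimates, from -0.66 to -0.11 on the log2 scale. Of these, 4 had an unadjusted p under 0.05, against 3.44% of all tested genes lower at that p. Asns, which makes asparagine (chromosome 6, 7675169 to 7693254, minus strand), was at 150.6, 110.4 and 142.8 CPM in KO replicates 4 to 6, and at 140.3, 181.1 and 173.1 CPM in WT replicates 1 to 3. Its groups overlapped through WT replicate 1 (log2 fold -0.29, SE 0.14, edgeR adjusted p = 0.697).

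The serine pathway showed small differences. Phgdh, the entry enzyme, was at 459.1, 424.5 and 418.8 CPM in KO replicates 4 to 6, and at 483.2, 499.1 and 492.4 CPM in WT replicates 1 to 3, with no overlap (log2 fold -0.18, SE 0.05, edgeR adjusted p = 0.597). Psat1, the next enzyme, was at 545.3, 487.6 and 504.8 CPM in KO replicates 4 to 6, and at 553.9, 600.8 and 571.5 CPM in WT replicates 1 to 3 (log2 fold -0.17, SE 0.06, edgeR adjusted p = 0.649). For these enzymes WT replicate 1 stood closer to the other WT libraries than it did for Trib3. Its log2 ratio to their mean was -0.04 for Phgdh and -0.08 for Psat1, against -0.83 for Trib3. The KO mean was closer to those libraries as well, at a log2 ratio of -0.19 for both enzymes, against -0.90 for Trib3. Psph, the last enzyme of the pathway, averaged 93.6 ± 7.90 CPM in KO libraries and 101.2 ± 6.13 CPM in WT libraries (SD, n = 3 each, edgeR adjusted p = 0.748), and shares 452 exon bases with Cct6a on the opposite strand.

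Pycr1 and Cth had the widest estimates of the 7 enzymes. Pycr1, the last enzyme of proline synthesis, was at 33.2, 33.3 and 30.3 CPM in KO replicates 4 to 6, and at 34.7, 52.0 and 45.2 CPM in WT replicates 1 to 3. Its groups did not overlap (log2 fold -0.44, SE 0.14, edgeR adjusted p = 0.612), and it passed as lower without WT replicate 1 (edgeR adjusted p = 0.0375). Aldh18a1, which starts proline synthesis, averaged 244.6 ± 29.0 CPM in KO libraries and 274.5 ± 17.6 CPM in WT libraries (SD, n = 3 each, log2 fold -0.17). Cth makes cysteine from cystathionine and was at 75.3, 83.7 and 60.2 CPM in KO replicates 4 to 6, and at 80.3, 150.7 and 115.6 CPM in WT replicates 1 to 3. WT replicate 1 was inside the KO range for Cth (log2 fold -0.66, SE 0.23, edgeR adjusted p = 0.628).

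All 3 mitochondrial one-carbon enzymes were lower in KO libraries at an unadjusted p under 0.05, as were 3.44% of all tested genes. Aldh1l2, which oxidises formyl-tetrahydrofolate in mitochondria, was at 25.1, 29.5 and 22.6 CPM in KO replicates 4 to 6, and at 28.4, 56.3 and 44.7 CPM in WT replicates 1 to 3. Its groups overlapped through WT replicate 1 (log2 fold -0.74, SE 0.24, edgeR adjusted p = 0.622), and without that library it passed as lower (log2 fold -0.97, edgeR adjusted p = 0.0473). It shares 1056 exon bases with D10Wsu102e on the opposite strand, so its count is uncertain without strand.

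Mthfd2, the mitochondrial methylene-tetrahydrofolate dehydrogenase, was at 322.4, 286.6 and 311.5 CPM in KO replicates 4 to 6, and at 323.5, 393.0 and 375.8 CPM in WT replicates 1 to 3. KO replicate 4 and WT replicate 1 nearly met (log2 fold -0.25, SE 0.08, edgeR adjusted p = 0.628). Shmt2, which feeds serine into the pathway, averaged 825.4 ± 47.5 CPM in KO libraries and 928.6 ± 32.8 CPM in WT libraries (SD, n = 3 each). Its groups did not overlap, and its log2 fold was -0.17 (edgeR adjusted p = 0.649).

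The 11 tRNA synthetases and the tRNA exporter Xpot all had negative estimates of similar small size, from -0.25 to -0.10 on the log2 scale with a median of -0.17. Of the 12, 7 had an unadjusted p under 0.05, against 3.44% of all tested genes lower at that p. In 6 of the 12 the groups did not overlap, against 6.07% of all tested genes with every KO library lower. Xpot, which carries tRNA out of the nucleus, was at 339.3, 325.2 and 319.1 CPM in KO replicates 4 to 6, and at 352.3, 401.1 and 387.1 CPM in WT replicates 1 to 3 (log2 fold -0.21, SE 0.06, edgeR adjusted p = 0.597). Gars, the glycine enzyme, was at 566.6, 535.9 and 543.7 CPM in KO replicates 4 to 6, and at 586.1, 701.5 and 673.5 CPM in WT replicates 1 to 3 (log2 fold -0.25, SE 0.07, edgeR adjusted p = 0.597). In both genes every KO library lay under every WT library, and WT replicate 1 was the nearest WT library to them.

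Yars, the tyrosine enzyme, was at 218.4, 203.9 and 207.2 CPM in KO replicates 4 to 6, and at 222.5, 253.5 and 251.8 CPM in WT replicates 1 to 3 (log2 fold -0.21, SE 0.06, edgeR adjusted p = 0.600). The enzymes for alanine (Aars, log2 fold -0.19), isoleucine (Iars, -0.19) and methionine (Mars, -0.13) also had groups that did not overlap. Those for leucine (Lars, -0.17), serine (Sars, -0.17), glutamate and proline (Eprs, -0.15), threonine (Tars, -0.14), asparagine (Nars, -0.14) and tryptophan (Wars, -0.10) overlapped through WT replicate 1. Without WT replicate 1, 0 of the 12 were called, with log2 folds from -0.32 to -0.16. Aars shares 1326 exon bases with Exosc6 on the same strand, so reads there cannot be assigned to either.

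Levels set per length of exon (RPKM, from the exon union of each gene) spread the 35 genes over a wide range. Shmt2 stood highest at 265.5 ± 15.3 RPKM in KO libraries and 298.7 ± 10.5 RPKM in WT libraries (SD, n = 3 each), followed by Atf4, Gars, Phgdh and Psat1. Vldlr, Stc2 and Nupr1 stood lowest, all under 1 RPKM over the 6 libraries. Across the 35 genes the more abundant ones had log2 folds nearer to 0 (Spearman's rho of 0.43 between RPKM and log2 fold, a description across genes that share the same 6 libraries). The 11 genes with a response element core in their window had a median log2 fold of -0.29, and the 18 without had one of -0.20, with ranges from -0.79 to -0.14 and from -1.21 to 0.02 that overlapped.

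Other genes known as ATF4 targets were mostly lower by estimate as well. Of 25 listed, 23 were tested, with a median log2 fold of -0.30. Negative estimates were found in 21, against 47.6% of all tested genes. At an unadjusted p under 0.05, 16 were lower and 0 higher, against 3.44% of all tested genes lower at that p. EdgeR called 0 of the 23 with all 6 libraries. DESeq2 called 1, Sesn2, as lower, and 0.165% of all tested genes as lower. Got1, a cytosolic aspartate aminotransferase, was at 127.5, 127.1 and 121.4 CPM in KO replicates 4 to 6, and at 136.7, 149.9 and 143.7 CPM in WT replicates 1 to 3 (log2 fold -0.19, edgeR adjusted p = 0.596). Eif4ebp1, the translation repressor 4E-BP1, averaged 138.3 ± 2.27 CPM in KO libraries and 174.5 ± 22.3 CPM in WT libraries (SD, n = 3 each, log2 fold -0.34, edgeR adjusted p = 0.596). Atf3, a stress-induced factor, averaged 50.3 ± 3.56 CPM in KO libraries and 71.0 ± 13.1 CPM in WT libraries (SD, n = 3 each, log2 fold -0.50, edgeR adjusted p = 0.597). Without WT replicate 1, edgeR called 0.43% of all tested genes lower and 8 of the 23, each lower in KO. They were Atf3, Eif4ebp1, the ER degradation factor Herpud1, the factor Nfe2l1, the leucine sensor Sesn2, and the amino acid transporter genes Slc1a4, Slc3a2 and Slc6a9. Slc7a11, the cystine transporter, had a log2 fold of 0.04, and Slc38a2, a neutral amino acid transporter gene, had one of -0.05. Cbs, the first enzyme of the route from homocysteine to cysteine, had the highest estimate of the list, 0.46 on the log2 scale (SE 0.37, edgeR adjusted p = 0.781), at 0.396 ± 0.179 CPM in KO libraries and 0.285 ± 0.0343 CPM in WT libraries (SD, n = 3 each).

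Neighbouring parts of the same machinery had medians nearer to 0, a difference between lists that was not tested. Among 14 genes of the eIF2 kinases, eIF2 and its exchange factor eIF2B, 10 were negative with a median log2 fold of -0.05. At an unadjusted p under 0.05, where 3.44% of all tested genes were lower, 1 of the 14 was lower. That gene was Ppp1r15b, the constitutive partner of the eIF2 phosphatase (log2 fold -0.12, edgeR adjusted p = 0.687), followed by the eIF2 subunit gene Eif2s2 (log2 fold -0.12). Eif2ak3, which encodes the unfolded protein sensor PERK, averaged 29.7 ± 1.98 CPM in KO libraries and 27.6 ± 1.11 CPM in WT libraries (SD, n = 3 each, log2 fold 0.10). Eif2ak2, which encodes the double-stranded RNA sensor PKR, had the widest estimate of this list, in the other direction from most of the 35 genes (log2 fold 0.33, edgeR adjusted p = 0.697). Among 14 genes of the ATF6 and XBP1 arm of the unfolded protein response, 9 were negative, with a median log2 fold of -0.06, and 3 were lower at that p. Xbp1 (log2 fold -0.22, edgeR adjusted p = 0.596) and the chaperone gene Dnajb9 (log2 fold -0.30, edgeR adjusted p = 0.628) had the smallest p of this list, and Atf6, the stress sensor that names the arm, was the third gene at that p (log2 fold -0.31, edgeR adjusted p = 0.669). EdgeR and DESeq2 called 0 genes of either list, and so did edgeR without WT replicate 1.

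tRNA synthetases outside the 35 genes give a comparison within the same class of enzyme. Of the cytosolic enzymes, those for cysteine (Cars) and arginine (Rars) were listed with the other ATF4 targets and are not counted here. Their log2 folds were -0.17 and -0.09. Cars was lower at an unadjusted p under 0.05, as were 3.44% of all tested genes (edgeR adjusted p = 0.628). The 7 remaining cytosolic enzymes had a median log2 fold of -0.04, with 6 negative and 0 at an unadjusted p under 0.05. Farsb, a subunit of the phenylalanine enzyme, had the smallest p among them (log2 fold -0.09, edgeR adjusted p = 0.707), and Qars, the glutamine enzyme, had a log2 fold of 0.06. The 17 mitochondrial enzymes had a median log2 fold of 0.02, with 5 negative and 0 at an unadjusted p under 0.05. Ears2, the mitochondrial glutamate enzyme, had a log2 fold of -0.24. EdgeR with and without WT replicate 1 and DESeq2 called 0 of either set. The difference between these lists and the 11 synthetases among the 35 genes was not tested.

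**Figure D5:**
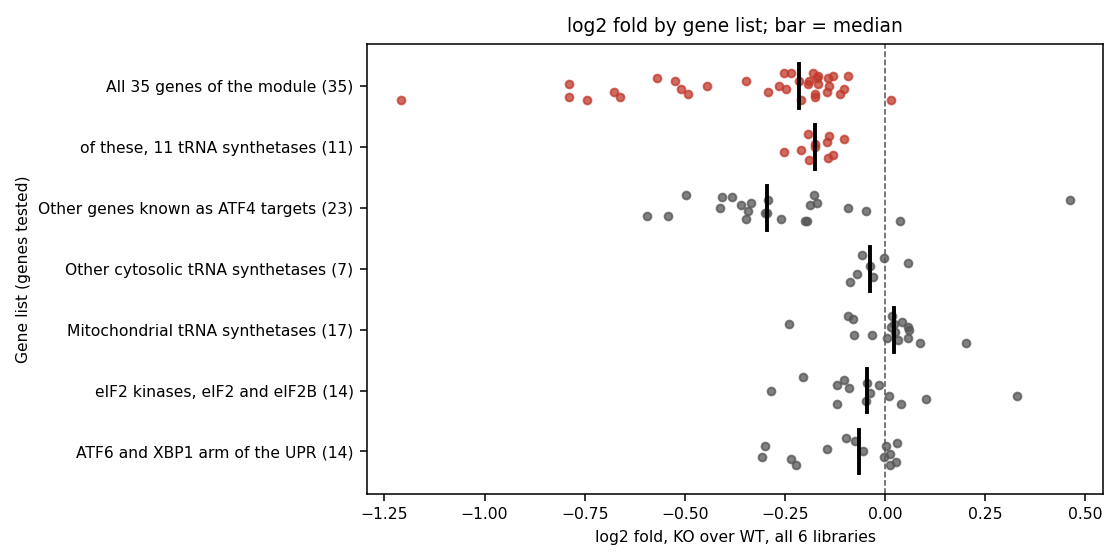
Fitted log2 fold of each tested gene (points), KO over WT with all 6 libraries, by gene list, with the number of genes tested in brackets and the median as a bar. The 35 genes and the other ATF4 targets have medians of -0.21 and -0.30. The lists of other cytosolic and mitochondrial synthetases, eIF2 factors and the ATF6 and XBP1 arm have medians between -0.06 and 0.02. The 11 synthetases among the 35 genes have a row of their own, and Cars and Rars are plotted with the other ATF4 targets.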

How the data were processed

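Trizol was used to extract total RNA for Illumina sequencing, per the labels' protocols. The deposited data are whole-number read counts, unnormalised, in 1 table of gene symbols by library, in which no column was left unused. The submitters' processing notes list HTSeq 0.9.1, DESeq2 and the mm10 build. Which aligner, annotation and strand setting they used is not given in these sources. Columns were matched to samples by the number in their names, which is not in column order, and grouped by the genotype in the titles. No pair of libraries agreed within sampling noise (mean chi-square per gene from 21.2 to 58.0), so none was counted as a duplicate.

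The comparison was fitted over the whole table with the quasi-likelihood test of edgeR 4.0.16 under R 4.3.3, after filterByExpr and with TMM factors and robust estimation, and Benjamini-Hochberg adjusted p under 0.05 counted as a call. CPM were computed with the same factors. The 95% intervals come from the fold, the F statistic and its degrees of freedom, and floors of 3 counts cover counting error only. DESeq2 1.42.0 and limma 3.58.1 were alternatives, and the procedure was tested on simulated data. Gene positions and exon lengths come from GENCODE M21 on GRCm38, the mm10 assembly. Promoters come from RefSeq.

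The 35 genes and the other lists were chosen with earlier results of these data known. Library values are given for the 3 genes with the smallest p in each role (2 in a role of 3), for 9 genes whatever their values (Atf4, Ddit3, Asns, Chac1, Trib3, Psat1, Phgdh, Mthfd2 and Eif2ak4) and for any called gene. The 2 genes with the smallest p are named from each other list, with Eif2ak3 and Atf3 whatever their values. A gene under this rule and a promoter sequence are not reported here. Slc7a11, Slc38a2, Cbs, Cars, Rars, Eif2ak2, Atf6 and the genes called without WT replicate 1 were named after their values were seen.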

Additional observations from a re-analysis of the deposited data

How the results depend on the processing

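The fit was repeated with DESeq2, with limma-voom, with a term for sex, without robust estimation, with RLE or upper-quartile scaling, with either no filter or a minimum of 1 CPM in 3 libraries, and without each library in turn. Without a low-count filter edgeR called 10 genes over all tested genes, and DESeq2 called 89, against 1 in the fit as reported. DESeq2 called 1 of the 35 genes (Chac1) and 1 gene of the other lists (Sesn2). Leaving out 1 library gave 1 to 119 calls over all genes, 0 to 7 among the 35 and 0 to 8 in the other lists, with the highest count of each without WT replicate 1. The number of the 35 lower at an unadjusted p under 0.05 ran from 7 to 29. The median log2 fold of the 35 stayed between -0.27 and -0.17 in these fits. Eif2ak4 ran from -0.0066 (without KO replicate 4) to 0.045 (without WT replicate 1), and was the one gene of the 35 whose sign changed in any alternative. The cause of these changes was not tested. No paired analysis was possible because KO and WT libraries have no replicate number in common.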
